A study of Mus musculus with 10 samples.

Results

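The branchiomeric muscle and somite factors are 10 transcription factors of muscle and of the paraxial mesoderm: Tcf21, Msc, Myf5, Myod1, Myog, Meox1, Meox2, Tcf15, Lbx1 and Tbx18. They were chosen by name, 10 of the 12393 genes that a probe set names alone, and every probe set that the platform annotation gives to one of these symbols was taken, which made 12 of the 22626 probe sets that are not controls. Expression was measured on Affymetrix arrays in mouse embryos at E10.5, in tissue dissected from the hindbrain region together with arches 1 to 4 of the pharynx. The 5 Fbln1-null embryos were homozygous for a gene trap insertion in Fbln1, which encodes the matrix protein fibulin-1, and the 5 wildtype embryos came from the same kind of cross, between heterozygous carriers of the gene trap. The design counts 5 embryos per genotype, the labels give no littermates, and the inherited gene trap is carried by the whole embryo. The series was made to ask how fibulin-1 affects FGF8 signalling.

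Muscles of the head arise in the unsegmented mesoderm inside the arches, and muscles of the trunk, tongue and limb arise from somites. Tcf21 and Msc (also called MyoR) are bHLH repressors that mark the arch muscle precursors. Myf5 and Myod1 commit cells to muscle in both settings, and Myog then drives their differentiation. Meox1, Meox2 and Tcf15 (paraxis) pattern the somite, Lbx1 marks precursors that migrate out of somites and also a class of dorsal hindbrain neurons, and Tbx18 keeps the anterior compartment of each somite. The bHLH members bind DNA at the E-box, written CANNTG, in which N is any base.

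The promoters of 5 of the 10 genes were in the RefSeq promoter table for build GRCm38.p6, those of Tcf21, Myf5, Myog, Meox2 and Tbx18. Shown are the 250 bases before the start site of a pair of genes with signal in this tissue, Myog (chr1:134289754-134290003, plus strand) and Meox2 (chr12:37108290-37108539, plus strand), and of a gene without, Tcf21 (chr10:22820144-22820393, minus strand). Capitals mark each E-box.
Myog: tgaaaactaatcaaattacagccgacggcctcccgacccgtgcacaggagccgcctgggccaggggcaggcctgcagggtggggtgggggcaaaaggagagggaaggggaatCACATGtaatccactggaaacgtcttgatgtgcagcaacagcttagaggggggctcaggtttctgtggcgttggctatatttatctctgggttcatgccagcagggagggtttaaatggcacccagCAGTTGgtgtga
Meox2: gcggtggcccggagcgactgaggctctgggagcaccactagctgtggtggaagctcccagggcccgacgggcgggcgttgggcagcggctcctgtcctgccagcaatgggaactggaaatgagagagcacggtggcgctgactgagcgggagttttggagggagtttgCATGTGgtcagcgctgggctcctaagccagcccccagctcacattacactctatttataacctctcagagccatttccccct
Tcf21: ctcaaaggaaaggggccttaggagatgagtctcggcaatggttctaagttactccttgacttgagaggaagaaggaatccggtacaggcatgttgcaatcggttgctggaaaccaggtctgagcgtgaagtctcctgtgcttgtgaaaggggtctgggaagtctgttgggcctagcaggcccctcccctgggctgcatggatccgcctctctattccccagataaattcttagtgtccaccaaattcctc
The Myog window held 2 E-boxes, CACATG from base -138 and CAGTTG from base -12 counted from the start site. Meox2 held 1, CATGTG from base -82, and Tbx18 held 1, CAGATG from base -168. The windows of Tcf21 and Myf5 held 0. The pattern CANNTG, though not each single E-box, reads the same on both strands. Of 32851 promoter windows of this length, 66.2% held at least 1 E-box and 31.8% at least 2. The counts of the members therefore do not set them apart.

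The deposited values are log2 expression made with GCRMA, a method that corrects each array for background from the probe sequence and pulls dim probe sets to a floor. The lowest value of the table was 2.22, and a value up to 2.72 was counted as at the floor. A probe set over log2 4 on at least 5 of the 10 arrays was counted as over the filter. Each probe has its own response, so levels of different probe sets are not read as relative amounts of RNA. Words such as dim and bright, the filter and summed signals describe the signal on the arrays alone. Array medians lay between 3.20 and 3.29. Fbln1 read 2.52 to 2.85 in null arrays and 3.83 to 5.11 in wildtype arrays on its brighter probe set, with no overlap. In bulk tissue, fewer cells of a type and less RNA per cell cannot be told apart.

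A pair of arrays, 1 of each genotype, stood apart in posterior Hox genes, which mark the trunk and limb buds and lie outside the labelled tissue. Hoxd9 read 8.27 in null replicate 4 and 7.86 in wildtype replicate 2, while the other null arrays read 2.27 to 2.28 and the other wildtype arrays 2.27 to 2.28. Hoxd10 read 7.76 in null replicate 4 and 5.48 in wildtype replicate 2, Hoxa10 read 6.97 and 4.96, and Hoxa9 read 5.98 and 5.50 in the same arrays. The 4 Hox genes were named after their values were seen. Of 9 trunk and limb bud markers on the array, these 4 exceeded log2 4 on those arrays, while Hoxc8, Hoxc9, Tbx4 and Cdx2 were at the floor on every array, and Pitx1 read 2.51 to 3.37 in null arrays and 2.55 to 2.84 in wildtype arrays. The log2 of the summed signal of the 9 genes ran from 5.52 to 9.53 in null arrays and from 5.50 to 8.57 in wildtype arrays.

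No member probe set passed the limma test for a difference between the genotypes. Of the 12 probe sets, 5 were over the filter, which stood for 4 genes (Myog, Meox1, Meox2 and Lbx1), against 43.3% of all probe sets. Of the other 7, 3 were at the floor on all 10 arrays, those of Tcf21 and Msc and 1 of Lbx1, against 30.2% of all probe sets, and they give no fold change. The remaining 9 were tested. With limma, 0 passed an adjusted p of 0.05 and 0 had an unadjusted p under 0.05 (adjusted p = 0.780 to 0.998). The exact permutation p, not adjusted, ran from 0.0238, for Myod1, to 0.984. Over the filter the share of all probe sets past the threshold was 0.0204%, and without a filter 0.00442%. At an unadjusted p of 0.05 these shares were 12.4% and 7.11%. The genotypes overlapped on every one of the 12 probe sets, of which 5 were over the filter. They did not overlap on 2.77% of all probe sets over the filter, and this share was not counted for those under it. The 5 probe sets over the filter had a median log2 fold change of 0.01, with 4 higher and 1 lower in null tissue, against a median of -0.04 over all 9801 probe sets over the filter, of which 43.1% were higher and 56.9% lower. The 4 were Lbx1 at 0.00, Myog at 0.04 and both Meox2 probe sets at 0.01 and 0.14, so this count shows no direction.

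**Figure D1:**
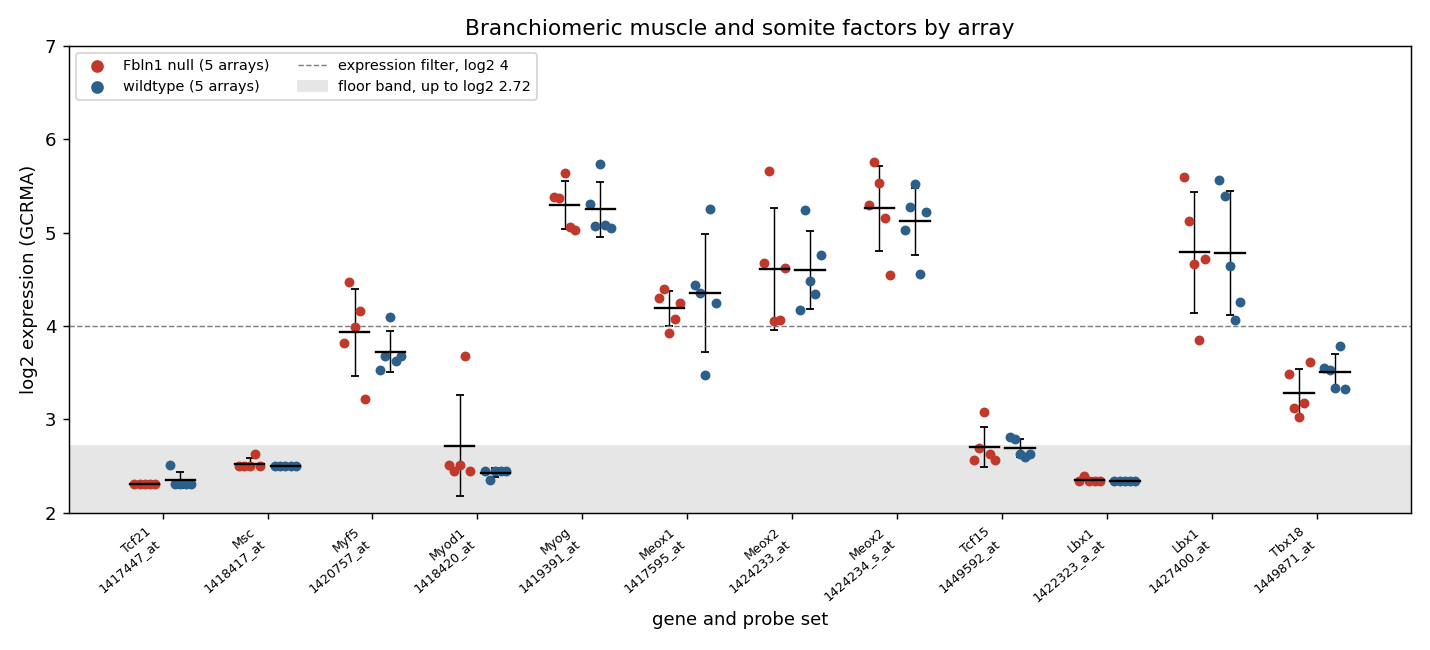
Log2 expression of the 12 member probe sets on the 5 Fbln1-null arrays (red) and the 5 wildtype arrays (blue), each point 1 array, with the mean and SD in black. The dashed line is the log2 4 filter and the grey band the floor, up to log2 2.72. The genotypes overlap on every probe set, and Tcf21, Msc and 1 Lbx1 probe set lie in the floor band throughout.

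Tcf21 and Msc, which mark the arch muscle precursors, were not detected on their probe sets. Tcf21 read 2.31 in all 5 null arrays, and in wildtype arrays it read 2.51 in replicate 1 and 2.31 in the other 4. Msc read 2.50 in null replicates 3, 4, 5 and 8 and 2.63 in null replicate 7, against 2.50 in all 5 wildtype arrays. These values sit at the bottom of the scale in both genotypes and hold no measurable difference. Tcf21 and Msc were each read by 1 probe set, so this holds for those probe sets alone. Of 10 branchiomeric upstream factors measured, 4 passed the filter (Isl1, Ebf2, Ebf3 and Six4) and 4 lay at the floor on every array. A list gene counted as at the floor had all its probe sets there, and 30.2% of all single probe sets were. Among the muscle and somite members, Myod1 was at the floor on 9 arrays and Tcf15 on 7. Tbx1, a T-box factor of the arch core mesoderm that acts upstream, read 2.65 to 3.32 in null arrays and 2.55 to 3.67 in wildtype arrays, under the filter.

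Myf5 and Myod1, the factors that commit cells to muscle, were dim. Myf5 read 3.82, 4.47, 3.99, 4.16 and 3.22 in null replicates 3, 4, 5, 7 and 8, against 3.53, 3.68, 4.10, 3.63 and 3.68 in wildtype replicates 1 to 5. The null arrays spanned more than the wildtype arrays and held both the highest and the lowest value. Only 3 arrays were over log2 4, so Myf5 was under the filter. It averaged 3.93 ± 0.47 in null tissue and 3.73 ± 0.22 in wildtype tissue (SD, n = 5 each), a log2 fold change of 0.21 with an SE of 0.22 (95% interval -0.30 to 0.71, limma adjusted p = 0.781 over all probe sets). Without null replicate 4 and wildtype replicate 2 it was 0.06 (limma adjusted p = 0.983). With 1 array left out it ran from 0.07 without null replicate 4 to 0.38 without null replicate 8 (limma adjusted p = 0.946 and 0.666).

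Myod1 read 2.51, 2.45, 2.51, 3.68 and 2.45 in null replicates 3, 4, 5, 7 and 8, against 2.45 in wildtype replicates 1, 3, 4 and 5 and 2.35 in wildtype replicate 2. Thus 9 of 10 arrays were at the floor, and null replicate 7 stood above the rest. With every wildtype array at the floor, no fold change can be read from Myod1. The fitted difference of 0.29 (95% interval -0.23 to 0.82, limma adjusted p = 0.780 over all probe sets) rests on null replicate 7, and without that array it was 0.05. The exact permutation p was 0.0238, but 9 of the 10 values that entered it were at the floor, so no difference is read from it. For Myf5, null replicate 7 read 4.16, below null replicate 4 at 4.47 and above all other arrays. For Myog it read 5.06, within the range of the other arrays. Its Msc value of 2.63, the highest Msc value of the 10 arrays, was at the floor.

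Myog, the differentiation factor, was the myogenic gene with signal over log2 4 on all 10 arrays. It read 5.38, 5.37, 5.64, 5.06 and 5.03 in null replicates 3, 4, 5, 7 and 8, against 5.31, 5.07, 5.74, 5.08 and 5.05 in wildtype replicates 1 to 5. Both genotypes ran over nearly the same range, with the highest values in wildtype replicate 3 and null replicate 5. The means were 5.29 ± 0.25 in null tissue and 5.25 ± 0.29 in wildtype tissue (SD, n = 5 each), a log2 fold change of 0.04 with an SE of 0.17 (limma adjusted p = 0.950). The 95% interval of -0.32 to 0.41 stands for a ratio of 0.801 to 1.33 on the deposited scale, which compresses changes of dim genes. The actin probe ratio, the 3' over the 5' probe set and a measure of RNA quality, was 2.19 to 2.85 log2 units in null arrays and 2.0 to 2.38 in wildtype arrays. With it as a covariate the log2 fold change was -0.14, and without null replicate 4 and wildtype replicate 2 it was -0.02, with no call in either.

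Meox1, a homeobox factor of the early somite, read 4.30, 4.40, 3.93, 4.08 and 4.25 in null replicates 3, 4, 5, 7 and 8, against 4.44, 4.35, 3.48, 5.25 and 4.25 in wildtype replicates 1 to 5. The null arrays lay inside the wildtype range, whose ends were wildtype replicates 3 and 4. Meox1 averaged 4.19 ± 0.18 in null tissue and 4.35 ± 0.63 in wildtype tissue (SD, n = 5 each), a log2 fold change of -0.16 with an SE of 0.25 (95% interval -0.71 to 0.39, limma adjusted p = 0.856). Wildtype replicate 4 was the sole array with high Xist and low Y-linked signal. Without it the log2 fold change was 0.06 (limma adjusted p = 0.940), and without wildtype replicate 3, the lowest array, it was -0.38 (limma adjusted p = 0.457). With the actin probe ratio as a covariate it was 0.05 (limma adjusted p = 0.965).

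Meox2, a homeobox factor of somites and of limb muscle precursors, was read by a pair of probe sets, and the brighter is of a type that can match several transcripts (_s_at). The dimmer probe set read 4.67, 5.66, 4.05, 4.06 and 4.62 in null replicates 3, 4, 5, 7 and 8, against 4.17, 5.24, 4.48, 4.34 and 4.76 in wildtype replicates 1 to 5. Null replicate 4 and wildtype replicate 2, the arrays with posterior Hox signal, were the highest of their genotypes on it. Whether tissue outside the arches and hindbrain took part in these Meox2 values was not tested. The log2 fold change was 0.01 with an SE of 0.29 (95% interval -0.63 to 0.65, limma adjusted p = 0.992), and without both arrays it was -0.09 (limma adjusted p = 0.943).

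The brighter Meox2 probe set read 5.30, 5.76, 5.53, 5.16 and 4.55 in null replicates 3, 4, 5, 7 and 8, against 5.03, 5.27, 5.52, 4.56 and 5.22 in wildtype replicates 1 to 5. Null replicate 4 was again the highest array, while wildtype replicate 2 stood below wildtype replicate 3. The log2 fold change was 0.14 with an SE of 0.23 (95% interval -0.36 to 0.63, limma adjusted p = 0.860). It was 0.05 without the 2 Hox-bearing arrays and -0.16 with the actin probe ratio as a covariate. Without null replicate 8 it was 0.32 (limma adjusted p = 0.546). On the 6 arrays of replicates 3, 4 and 5 it was 0.43 with the replicate number as a block (limma adjusted p = 0.544). Without the block those 6 arrays gave 0.43 as well (limma adjusted p = 0.491). Across the 10 arrays the probe sets correlated weakly (Pearson r = 0.37, permutation p = 0.286; Spearman rho = 0.25, permutation p = 0.491), and r was -0.15 without the 2 arrays farthest from the median of the dimmer one. The pair therefore did not order the arrays alike.

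**Figure D2:**
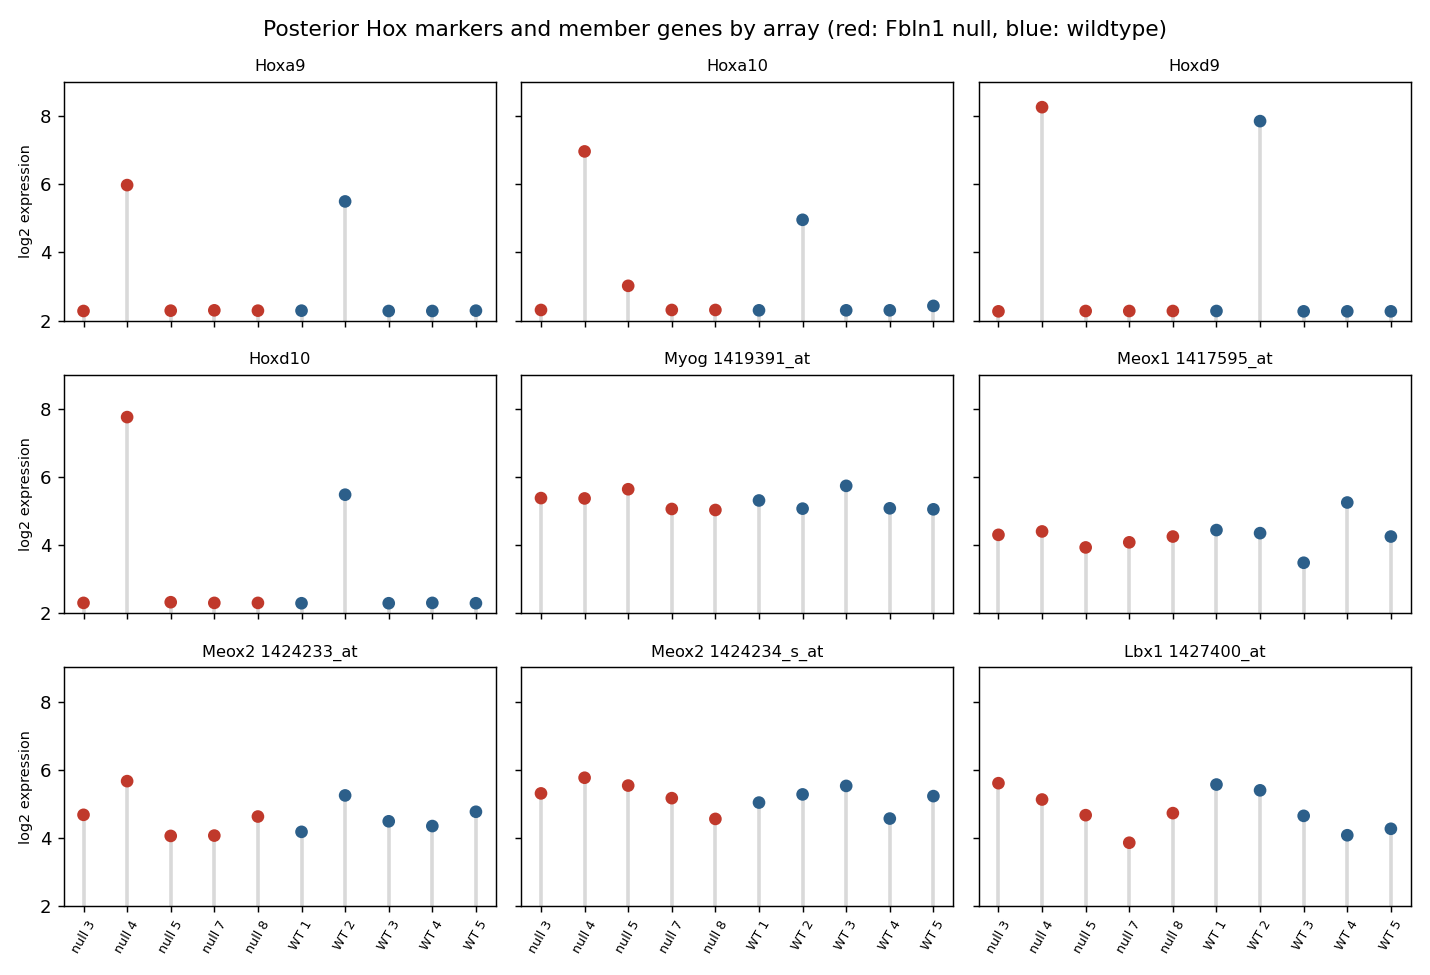
Log2 expression on each of the 5 Fbln1-null arrays (red) and the 5 wildtype arrays (blue) for 4 posterior Hox genes and the 5 member probe sets over the filter; each point is 1 array, and the axis starts at log2 2, just under the floor. The 4 Hox genes are high on null replicate 4 and wildtype replicate 2, where Hoxd9 reads 8.27 and 7.86, and these arrays are also the highest of their genotype on the dimmer Meox2 probe set.

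Lbx1, a homeobox factor of migrating muscle precursors and of dorsal hindbrain neurons, gave signal on 1 of its probe sets and was at the floor on the other, at 2.34 to 2.39 in null arrays and 2.34 in wildtype arrays. The probe set with signal read 5.60, 5.12, 4.66, 3.85 and 4.72 in null replicates 3, 4, 5, 7 and 8, against 5.56, 5.39, 4.64, 4.07 and 4.26 in wildtype replicates 1 to 5. The arrays of each genotype spread over more than 1 log2 unit, and the genotypes covered the same range. The means were 4.79 ± 0.65 in null tissue and 4.78 ± 0.67 in wildtype tissue (SD, n = 5 each), a log2 fold change of 0.00 with an SE of 0.35 (95% interval -0.75 to 0.75, limma adjusted p = 0.998). The value depended on which arrays entered and on the model. On the 6 arrays of replicates 3, 4 and 5 it was 0.80 with the replicate number as a block (limma adjusted p = 0.245). Without the block those 6 arrays gave 0.80 as well (limma adjusted p = 0.265). It was 0.46 without wildtype replicates 1 and 2 (limma adjusted p = 0.642). With the actin probe ratio as a covariate it was -0.32 (limma adjusted p = 0.778). Without null replicate 4 and wildtype replicate 2 it was 0.07 (limma adjusted p = 0.982).

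The arrays highest for Lbx1 were also those highest for a list of somite and paraxial mesoderm genes. The list score, the mean deviation of its 7 genes over the filter from their means over all arrays, was 0.44, -0.22, -0.08, -0.45 and -0.38 in null replicates 3, 4, 5, 7 and 8, against 0.44, 0.48, -0.07, -0.03 and -0.12 in wildtype replicates 1 to 5. Null replicate 3 and wildtype replicates 1 and 2 had the highest scores, and null replicate 7 the lowest, as it had for Lbx1. Pax1, a factor of the ventral somite and the pharyngeal pouches, read 6.16, 4.70, 5.21, 3.23 and 4.31 in null replicates 3, 4, 5, 7 and 8, against 6.01, 6.51, 4.59, 5.04 and 5.55 in wildtype replicates 1 to 5. The score of 6 neural genes over the filter was 0.12, 0.17, 0.10, -0.02 and -0.48 in the same null arrays and 0.21, 0.10, 0.19, -0.42 and 0.03 in the wildtype arrays. Single genes of both lists differed from these means. Pax1, Foxd1 and Foxc2 were highest on null replicate 3 and wildtype replicates 1 and 2, while Foxc1, Lfng, Dll1 and Pax3 were not. Elavl3, of the neural list, was also highest on those arrays, at 8.12, 8.30 and 7.91, and none of the other neural genes over the filter was. The part of either tissue in the Lbx1 values was not tested.

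Tcf15, a bHLH factor that makes the somite epithelial, read 2.56 to 3.08 in null arrays and 2.60 to 2.81 in wildtype arrays, and 4 null and 3 wildtype arrays were at the floor. Its highest value, 3.08, was in null replicate 5. The log2 fold change was 0.01 with an SE of 0.10 (limma adjusted p = 0.993 over all probe sets), and near the floor this size is compressed. Without null replicate 4 and wildtype replicate 2 it was 0.04 (limma adjusted p = 0.967).

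Tbx18, a T-box factor of the anterior somite compartment and also of the epicardium, read 3.49, 3.12, 3.03, 3.18 and 3.62 in null replicates 3, 4, 5, 7 and 8, against 3.55, 3.53, 3.34, 3.79 and 3.33 in wildtype replicates 1 to 5. All arrays were above the floor and under log2 4, and 3 null arrays lay below every wildtype array. Tbx18 averaged 3.29 ± 0.25 in null tissue and 3.51 ± 0.19 in wildtype tissue (SD, n = 5 each), a log2 fold change of -0.22 with an SE of 0.14 (95% interval -0.53 to 0.09, limma adjusted p = 0.780 over all probe sets, exact permutation p = 0.159). It had the smallest unadjusted limma p of the 9 probe sets, 0.145. The log2 fold change was -0.07 with the actin probe ratio as a covariate (limma adjusted p = 0.960) and -0.30 without null replicate 8 (limma adjusted p = 0.667).

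**Figure D3:**
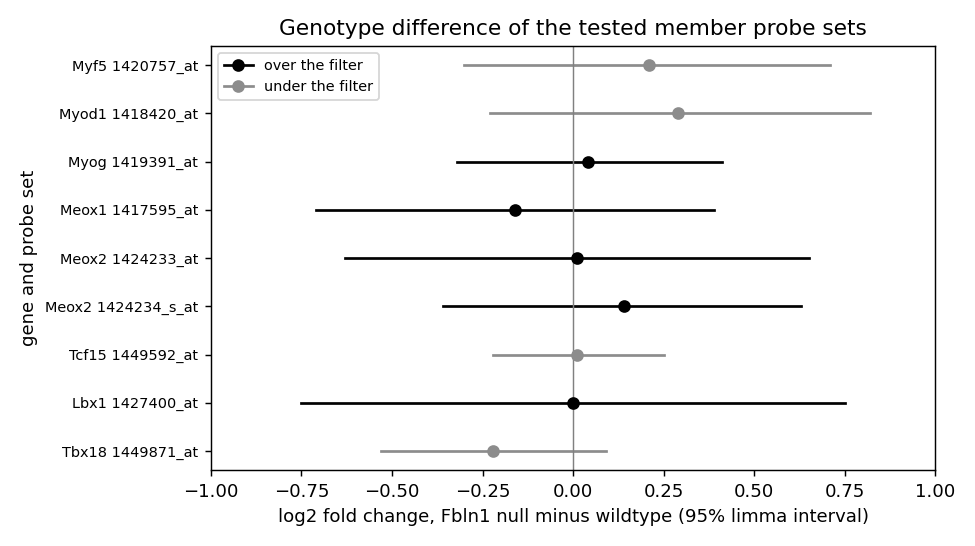
Log2 fold change of Fbln1-null minus wildtype tissue for the 9 member probe sets that were not at the floor on every array, with the 95% limma interval; black probe sets were over the filter and grey ones under it. The Myod1 value rests on 1 array above the floor. Every interval includes 0, and the intervals together span -0.75 to 0.82.

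Genes that act before, beside and after the members were counted from lists. Of 14 branchiomeric upstream factors, 10 were measured and 4 passed the filter, with 3 higher and 1 lower in null tissue. Of all 5912 genes over the filter, 43.1% were higher and 56.9% lower. The median log2 fold change of the 4 was 0.11, against -0.04 over all 5912 genes. By limma 0 of the 4 passed an adjusted p of 0.05, against 0.0338% of all genes. At an unadjusted p of 0.05 the count was 0, against 12.8% of all genes, and 4 genes are too few to read it. Isl1, a LIM-homeodomain factor of arch mesoderm and of motor neurons, averaged 10.36 ± 0.19 in null tissue and 10.24 ± 0.31 in wildtype tissue (SD, n = 5 each), with a log2 fold change of 0.12. Six4, a homeobox partner of Eya proteins in myogenesis, had 0.12, and Ebf3, a helix-loop-helix factor of neurons and muscle, had 0.10. Lhx2, Eya1, Nkx2-5 and Tlx1 were at the floor on every array.

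The bHLH members act as dimers with E-proteins, and Id proteins block those dimers. Of 15 partners and inhibitors, 11 passed the filter, with 3 higher and 8 lower in null tissue (median log2 fold change -0.11). By limma 0 passed an adjusted p of 0.05, against 0.0338% of all genes, and 4 had an unadjusted p under 0.05, against 12.8% of all genes. Hes6, a bHLH inhibitor of Hes1 made in muscle and neural precursors, was read on a probe set of a type that can match several transcripts (_x_at). It gave 9.16 ± 0.12 in null tissue and 9.54 ± 0.24 in wildtype tissue (SD, n = 5 each), a log2 fold change of -0.38 with an SE of 0.13 (limma adjusted p = 0.302). Mef2a, a MADS-box cofactor of the myogenic factors, had 0.31 (SE 0.12, limma adjusted p = 0.339), and Id3 had -0.41 (SE 0.18, limma adjusted p = 0.370). Tcf3, an E-protein gene, completed the 4, with -0.53 (SE 0.23, limma adjusted p = 0.371), while the E-protein genes Tcf4 and Tcf12 had 0.08 and 0.05. Twist1, a bHLH repressor made in arch mesenchyme, averaged 8.69 ± 0.35 in null tissue and 8.72 ± 0.24 in wildtype tissue, and so had signal on the arrays of both genotypes.

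Of 19 somite and paraxial mesoderm genes measured, 7 passed the filter and 8 lay at the floor on every array, among them Pax7, Uncx, Mesp2 and Tbx6. Of the 7, 3 were higher and 4 lower in null tissue (median log2 fold change -0.21), where 56.9% of all genes over the filter were lower. By limma 0 passed an adjusted p of 0.05 and 1 had an unadjusted p under 0.05, against 12.8% of all genes. Foxd1, a forkhead factor, had -0.76 (SE 0.31, limma adjusted p = 0.347), Pax1 had -0.82 (SE 0.48, limma adjusted p = 0.532), and Foxc2, a forkhead factor of somites and arch mesenchyme, had -0.44 (SE 0.26, limma adjusted p = 0.533). Pax3, a factor of muscle precursors and of dorsal neural tube, had 0.01.

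Muscle structural genes are targets of the myogenic factors and several are shared with heart. Of 23 measured, 8 passed the filter, with 3 higher and 5 lower in null tissue (median log2 fold change -0.09). By limma 0 of the 8 passed an adjusted p of 0.05, and 1 had an unadjusted p under 0.05, against 12.8% of all genes. Mylpf, a fast skeletal myosin light chain, read 5.79 ± 0.17 in null tissue and 6.08 ± 0.07 in wildtype tissue (SD, n = 5 each), a log2 fold change of -0.29 with an SE of 0.12 (limma adjusted p = 0.339). Myh3, the embryonic myosin heavy chain, had -0.41 (SE 0.19) and Myl1, a skeletal myosin light chain, 0.32 (SE 0.15). These genes did not move one way, and Acta1, Ckm, Mymk and the acetylcholine receptor subunits Chrna1 and Chrnd were at the floor on every array.

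Markers of heart and epicardium, tissue that lies beside the arches, were mostly dim. Of the 15 genes listed, 2 passed the filter and 5 lay at the floor on every array, among them Myh6 and Myl2. Tbx20, a T-box factor of heart and hindbrain motor neurons, differed by -0.33 (SE 0.30) on the log2 scale, and Tbx5, a T-box factor of heart and forelimb, by 0.12 (SE 0.34). Of 9 neural markers measured, 6 passed the filter, with 3 higher and 3 lower in null tissue (median log2 fold change 0.03). By limma 0 passed an adjusted p of 0.05, and 1, Pax6, had an unadjusted p under 0.05, against 12.8% of all genes. Nefl, a neurofilament, averaged 9.79 ± 0.34 in null tissue and 9.30 ± 0.49 in wildtype tissue (SD, n = 5 each), a difference of 0.48 with an SE of 0.23 (limma adjusted p = 0.425), and so had signal on the arrays of both genotypes. Stmn2 and Elavl3, genes of young neurons, had log2 fold changes of 0.16 and 0.10. Pax6, a neural progenitor factor, had -0.52 (SE 0.15, limma adjusted p = 0.222), and Sox2, a factor of neural stem cells, had -0.44 (SE 0.31).

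**Figure D4:**
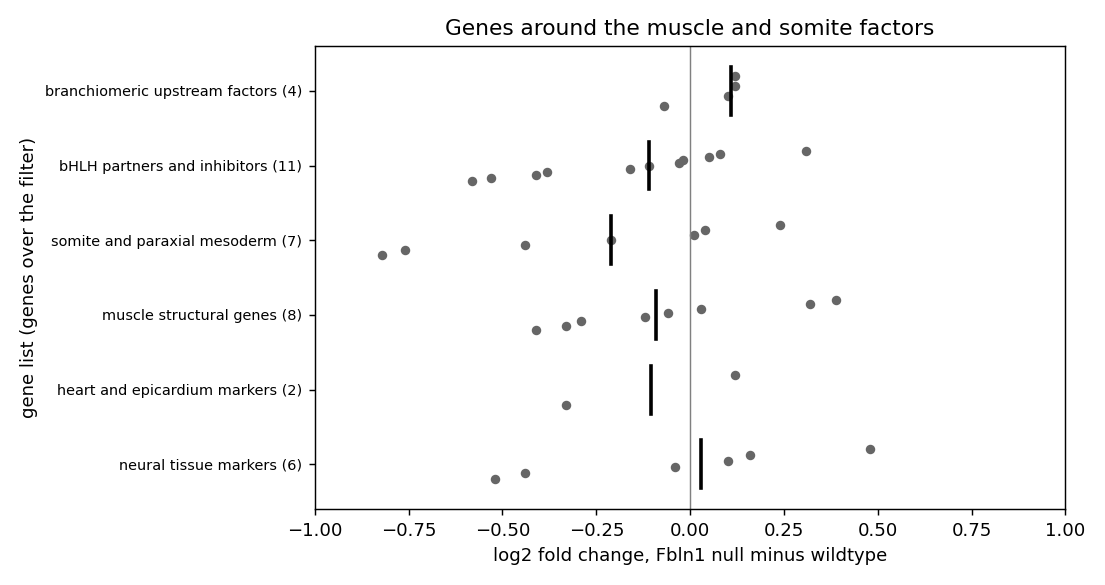
Log2 fold change of Fbln1-null minus wildtype tissue for the genes over the filter in 6 lists around the members, each point 1 gene on its brightest probe set, with the list's median as a bar. The number of genes is given beside each list; the medians lie between -0.21 and 0.11, and no gene passed the limma threshold.

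The genes whose values followed each member most closely over the 10 arrays were found after each genotype's mean was taken out, on the brightest probe set of each gene over the filter. For Lbx1 they were Sfxn3 (Pearson r = 0.98, Spearman rho = 0.95), Cnnm3 (0.97 and 0.99) and Marcksl1 (0.97 and 0.92). For Meox2 they were Rps19 (0.96 and 0.92), Trip12 (0.96 and 0.85) and Serf1 (0.95 and 0.83). For Myog they were Mttp (0.93 and 0.85), Cebpg (0.89 and 0.84) and Irx2 (0.86 and 0.72), and for Meox1 Lin28a (0.92 and 0.83), Prdm4 (0.91 and 0.71) and Farp2 (0.87 and 0.42). No member was among them, and these are the closest of 5912 genes over 10 arrays, so values this high are a description of the ordering alone.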

How the data were processed

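RNA of 10 arrays was labelled with an Affymetrix 3' IVT kit from 100 ng of total RNA, per the labels' protocols. The values that the authors deposited are on a log2 scale and come from GCRMA (named in the submitters' processing notes, version not given in the sources used here). Control probe sets (64 of 22690) were left out, and 20380 of the rest had 1 gene symbol. The genotypes were compared by limma (version 3.58.1, R 4.3.3), genotype alone in the model, two-sided, with Benjamini-Hochberg adjustment over the 9801 probe sets with a log2 value over 4 on at least 5 arrays. Probe sets under that filter were fitted among all 22626. Exact permutation tests ran over all 252 assignments of 5 and 5 arrays. With no record of litters, p-values reflect only how these samples vary, and 10 arrays limit precision. The members and lists were chosen with earlier results of these data known. The rule named all members, list genes past the threshold or with the 3 smallest p in a list, the 3 genes most like each member over the filter, and Fbln1. Other list genes, given at the floor, as tissue checks or to complete a list, were named after their values were seen. Alternatives covered scaling, filter, floor, spread model, array weights, replicate block, embryo sex, the actin probe ratio and arrays left out. Promoter sequences came from RefSeq (GRCm38.p6), and no build was named for the arrays.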

Additional observations from a re-analysis of the deposited data

Results flagged for a closer look

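Single arrays stood far from the other 4 of their genotype, by Dixon's criterion, in 20 of 94 groups of 5 arrays, and chance gives about 1 in 20. Many of these lie at or near the floor, where small steps suffice. Among the members, Myod1 read 3.68 in null replicate 7 (next highest 2.51) and 2.35 in wildtype replicate 2 (next lowest 2.45). Msc read 2.63 in null replicate 7, Tcf15 3.08 in null replicate 5 and the dim Lbx1 probe set 2.39 in null replicate 4. Tcf21 read 2.51 and Myf5 4.10 in single wildtype arrays, replicates 1 and 3.

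Posterior Hox genes set apart null replicate 4 and wildtype replicate 2, with 5.98 and 5.50 for Hoxa9, 6.97 and 4.96 for Hoxa10, 8.27 and 7.86 for Hoxd9 and 7.76 and 5.48 for Hoxd10. Tbx5 was low in null replicate 7 (3.92, next lowest 5.19) and wildtype replicate 3 (3.82, next lowest 5.15). Nefl read 9.18 in null replicate 8, the dimmer Fbln1 probe set 2.88 in null replicate 7, and Myl1 4.38 in wildtype replicate 1.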

How the results depend on the processing

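Under every alternative that gave a value, 0 member probe sets passed an adjusted p of 0.05 by limma (lowest adjusted p = 0.245, for Lbx1 with the replicate block); 0 to 2 had an unadjusted p under 0.05. With the log2 6 filter none was left to test. The count over all probe sets, 2, was 1 without a filter, 8 with a trended and robust spread model, 34 with the log2 6 filter or array weights, and 0 with the replicate block, on the same 6 arrays with no block, with the sex or actin covariate, without wildtype replicates 1 and 2, or without null replicate 4 and wildtype replicate 2. With 1 array left out it was 0 to 7: 7 when wildtype replicate 3 was dropped, 1 for wildtype replicate 5, 3 for null replicate 3, 2 for null replicate 4, and 0 for each of the other 6. Where limma gave 0, between 808 and 1349 probe sets had an unadjusted p under 0.05. Signs of small log2 fold changes turned. With the sex covariate they were 0.06 (Meox1), -0.05 and 0.00 (Meox2), -0.01 (Tcf15) and -0.18 (Lbx1). Wildtype replicate 4 was the sole array read as female, so this covariate gave the same values as leaving that array out and is not a separate check. With the actin covariate they were -0.14 (Myog), 0.05 (Meox1), -0.16 (brighter Meox2), -0.13 (Tcf15) and -0.32 (Lbx1). Array weights gave -0.03 (Tcf15) and -0.05 (Lbx1), and quantile normalization -0.02 (Tcf15). Without null replicate 4 and wildtype replicate 2, an alternative chosen after seeing the data, Myog had -0.02 and the dimmer Meox2 -0.09. With 1 array left out the ranges were -0.20 to 0.24 (Lbx1), -0.38 to 0.06 (Meox1), -0.25 to 0.17 and 0.00 to 0.32 (Meox2), -0.04 to 0.17 (Myog) and -0.08 to 0.05 (Tcf15). The cause was not tested. Myf5, Myod1 and Tbx18 kept their sign but not their size, at 0.07 to 0.38, 0.05 to 0.36 and -0.30 to -0.15 with 1 array left out, and Tbx18 was -0.07 with the actin covariate. Deviations of same-numbered arrays from their genotype means had r = -0.19, -0.34 and 0.16 for numbers 3, 4 and 5. Null replicates 3, 4 and 5 were most like wildtype replicates 1, 3 and 5. With so few numbers and no record of litters, this cannot settle whether equal numbers mark a pairing. On the 6 arrays of these numbers Lbx1 had 0.80 both with the block and without it, and no call in either.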
